A study of Mus musculus with 4 samples.

Results

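Adipocyte genes are described here through 10 transcripts, Adipoq, Plin1, Plin4, Cfd, Fabp4, Cidec, Lep, Car3, Hp and Lpl, which were picked by symbol from the 24527 genes of the read count table. Car3 and Hp were picked because they lie among the genes with the lowest ratio of spheroid to tumor, so the differences from the tumor described for the 10 genes are descriptions and were not tested. The table holds 1 library for each of 4 sources of B16F10 cells, a mouse melanoma line with wild-type genotype in the labels: spheroids grown with NIH/3T3 mouse fibroblasts, a 2D co-culture with NIH/3T3 cells, a 2D monoculture, and tumors grown under the skin of 1-year-old female C57BL/6 mice. By the methods of the study, the cells carried a green fluorescent protein and were sorted on it, whereas the label of the tumor library describes snap-frozen tumor. With 1 library per source there is no replicate, no p-value is given, and every interval is a 95% interval of the counting error alone.

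An adipocyte stores fatty acids as triglycerides in a single large lipid droplet. Perilipins and CIDE proteins coat and enlarge the droplet, lipoprotein lipase and fatty acid binding proteins bring the fatty acids in, and the cell secretes hormones and plasma proteins, among them adiponectin, leptin and adipsin. The genes of this programme are switched on together by PPARG and C/EBP factors when a fibroblast-like precursor turns into an adipocyte.

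The libraries held between 118896900 and 150028663 reads. Levels are given in CPM, a gene's reads relative to all reads of its library, after scaling with edgeR's TMM factors. A floor of 3 reads, set for a count of 0, corresponded to 0.0185 to 0.0262 CPM. The melanocyte genes that define B16F10 cells were present in all libraries, with Tyrp1, an enzyme of melanin synthesis, at 2455 CPM in spheroids and 8948 CPM in the tumor. The female transcript Xist stood at 69.9 CPM in the tumor and did not exceed 0.262 CPM in a culture. All 10 adipocyte genes were more than 2-fold higher in the tumor library than in each culture after 1 CPM was added to every value, where 27.6% of the 12728 genes that averaged at least 1 CPM were higher than in spheroids, 20.9% higher than in 2D co-culture and 14.8% higher than in 2D monoculture. The 10 genes summed to 3177 CPM in the tumor, 4.53 CPM in spheroids, 11.5 CPM in 2D co-culture and 3.31 CPM in 2D monoculture. They took 0.369% of all reads of the tumor library. The cultures were set up from B16F10 cells, alone or with NIH/3T3 fibroblasts. From 1 tumor library, the number of adipocytes, the RNA per adipocyte and the RNA of other cells that make some of these genes cannot be told apart.

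RefSeq promoter windows of the build GRCm38.p6 were matched for 6 of the 10 genes, Adipoq, Plin1, Plin4, Cfd, Cidec and Lep, and gave 7 windows of 250 bases before a start, as Cidec has 2 starts. Both strands were searched for the C/EBP element TTGCNNAA, where N is any base. It was found in windows of 3 of the 6 genes, Lep, Plin1 and Cidec, and in 9.56% of 32851 windows of all genes. These 3 windows are shown because they carry a match, and the capitals mark it. The letters describe the sequence and do not show a site in use.
Lep, chr6:29059971-29060220, plus strand: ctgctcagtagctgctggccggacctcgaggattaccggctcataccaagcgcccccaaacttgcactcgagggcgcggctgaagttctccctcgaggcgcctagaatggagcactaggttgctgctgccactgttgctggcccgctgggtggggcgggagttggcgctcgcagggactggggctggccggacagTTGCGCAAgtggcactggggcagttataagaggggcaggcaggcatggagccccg
Plin1, chr7:79732777-79733026, minus strand: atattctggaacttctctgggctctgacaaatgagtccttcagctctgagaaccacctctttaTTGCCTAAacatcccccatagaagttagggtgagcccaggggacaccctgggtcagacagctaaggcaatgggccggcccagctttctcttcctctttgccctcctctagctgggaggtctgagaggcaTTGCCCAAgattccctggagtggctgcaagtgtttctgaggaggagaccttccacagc
Cidec second start, chr6:113434765-113435014, minus strand: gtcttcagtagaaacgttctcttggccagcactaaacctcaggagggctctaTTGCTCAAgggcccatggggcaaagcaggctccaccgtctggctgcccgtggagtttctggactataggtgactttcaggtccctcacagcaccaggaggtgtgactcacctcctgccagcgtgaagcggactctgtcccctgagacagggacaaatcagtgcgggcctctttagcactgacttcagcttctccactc
In Lep the match lay 55 to 48 bases before the start and read the same on both strands, and Plin1 had matches at 187 to 180 and at 58 to 51 bases before the start. The TATA box, searched on the gene's strand as the exact letters TATAAA, was in none of the 7 windows and in 7.59% of all windows. Other forms of it were not searched. The PPAR-RXR element AGGTCANAGGTCA, searched on both strands with up to 2 mismatches, was in none of the 7 and in 3.24% of all windows.

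Gene positions are those of the GRCm38 (mm10) annotation. Of the secreted proteins, Adipoq (chr16:23146536-23158028, plus strand) encodes adiponectin, a hormone made almost solely by adipocytes. It had 4 reads in 2D monoculture, 17 in 2D co-culture, 21 in spheroids and 18925 in the tumor, which is 0.0281, 0.148, 0.154 and 117 CPM. The tumor stood far above the cultures, and against 2D monoculture its log2 ratio was 12.02 (interval 10.66 to 13.90). Lep (chr6:29060220-29073877, plus strand) encodes leptin, the hormone that signals the size of the fat store to the brain. No read of it was counted in any culture, and the tumor had 950 reads, or 5.85 CPM. Leptin was thus at least 278-fold higher in the tumor than in 2D monoculture, at least 266-fold higher than in spheroids and at least 223-fold higher than in 2D co-culture, with 3 reads per culture library as the floor.

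Cfd (chr10:79890853-79892655, plus strand) encodes adipsin, the serine protease that activates the alternative pathway of complement. It had 0.197 CPM in 2D monoculture, 1.30 CPM in 2D co-culture, 1.12 CPM in spheroids and 690 CPM in the tumor, from 28, 149, 152 and 112008 reads. Its log2 ratio of tumor to spheroid was 9.27 (interval 9.04 to 9.51). Hp (chr8:109575128-109579172, minus strand) encodes haptoglobin, a plasma protein that binds free hemoglobin and is made by liver, fat and myeloid cells. It had 5 reads in 2D monoculture, 122 in 2D co-culture, 132 in spheroids and 117946 in the tumor, or 0.0351, 1.07, 0.969 and 727 CPM. Against 2D monoculture the tumor had a log2 ratio of 14.34 (interval 13.11 to 15.96), and the interval overlapped that of Car3. For Cfd and Hp the co-culture and the spheroid lay close together and above the monoculture, at levels near 1 CPM.

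Of the lipid droplet proteins, Plin1 (chr7:79720218-79732903, minus strand) encodes perilipin 1, which guards the droplet of adipocytes against lipases. It had 0.133 CPM in 2D monoculture, 0.114 CPM in 2D co-culture, 0.220 CPM in spheroids and 31.2 CPM in the tumor, from 19, 13, 30 and 5063 reads. Cidec (chr6:113424634-113435760, minus strand) encodes the protein that joins droplets into a larger one. It had 5, 11, 10 and 11083 reads in the same order, and its tumor level was 68.3 CPM against at most 0.0961 CPM in a culture. The intervals of the 3 cultures overlapped for both genes. Plin4 (chr17:56100591-56109803, minus strand) encodes perilipin 4, a coat protein of nascent droplets. It had 0.400 CPM in 2D monoculture, 0.585 CPM in 2D co-culture, 0.220 CPM in spheroids and 66.6 CPM in the tumor, from 57, 67, 30 and 10813 reads. An exon of Plin4 overlaps one of Hdgfl2 on the opposite strand, and the counting is not stated to use strand. That gene, listed as Hdgfrp2, had between 159 and 221 CPM in the cultures and 50.9 CPM in the tumor, and its part in the Plin4 reads of the cultures was not tested.

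Fabp4 and Lpl supply the cell with fatty acids. Fabp4 (chr3:10204088-10208576, minus strand) encodes the fatty acid binding protein of adipocytes, which capillary endothelium and macrophages also make. It had 0.477 CPM in 2D monoculture, 0.926 CPM in 2D co-culture, 0.793 CPM in spheroids and 575 CPM in the tumor, from 68, 106, 108 and 93274 reads. Lpl (chr8:68880491-68907448, plus strand) encodes lipoprotein lipase, which frees fatty acids from circulating triglycerides and is also made by muscle and macrophages. It had 1.96 CPM in 2D monoculture, 5.90 CPM in 2D co-culture, 0.176 CPM in spheroids and 124 CPM in the tumor, from 279, 676, 24 and 20185 reads. Lpl was the gene of the 10 with the smallest ratio of tumor to 2D co-culture, 21.1-fold (log2 ratio 4.40, interval 4.29 to 4.51), and its ratio of tumor to spheroid was 705-fold.

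Car3 (chr3:14863512-14872523, plus strand) encodes carbonic anhydrase 3, an abundant enzyme of adipocytes and of muscle that converts carbon dioxide to bicarbonate. It had 7 reads in 2D monoculture, 151 in 2D co-culture, 110 in spheroids and 125461 in the tumor, or 0.0491, 1.32, 0.808 and 773 CPM. The log2 ratio of tumor to spheroid was 9.90 (interval 9.63 to 10.19). In the ranking of all 12728 genes by the ratio of tumor to spheroid with 1 CPM added, which the choice of the genes used, Car3 stood at place 3, Hp at 5, Cfd at 9 and Fabp4 at 10. Lep, with the lowest level in the tumor, stood at place 995.

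**Figure D1:**
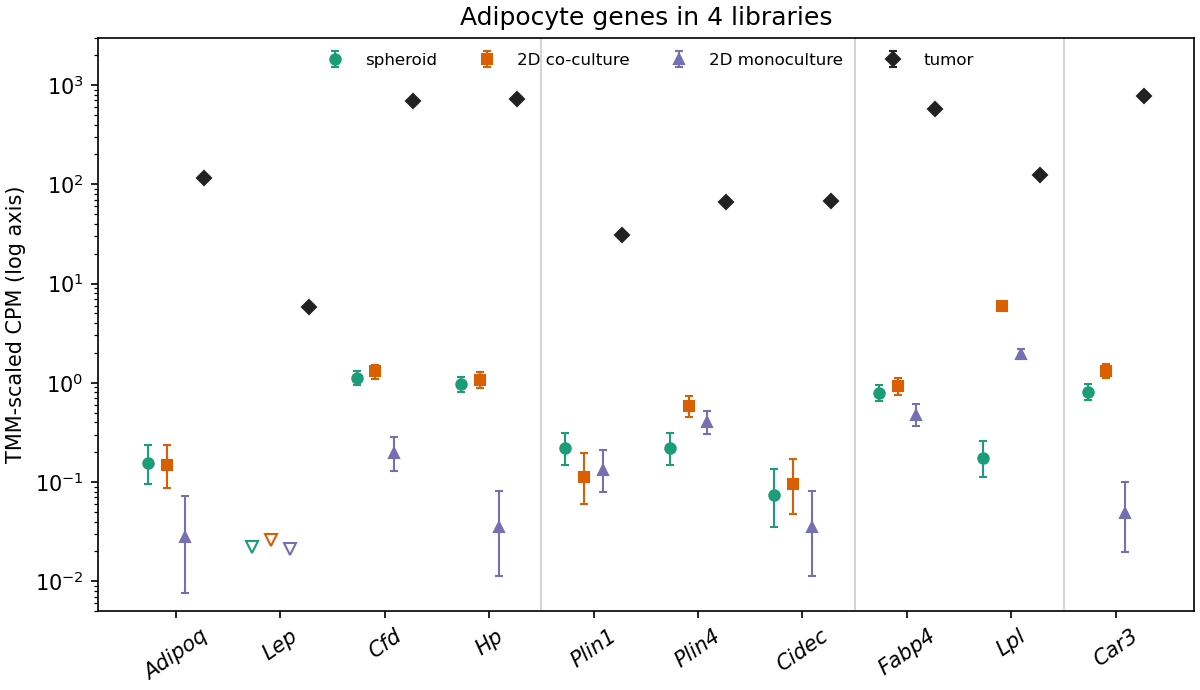
TMM-scaled CPM on a log axis for the 10 adipocyte genes in the libraries of spheroids, 2D co-culture, 2D monoculture and tumor, 1 library each, with 95% counting intervals; open triangles mark 3 reads where no read was counted, and vertical lines part secreted, droplet, lipid supply and enzyme genes. The tumor points run from 5.85 CPM for Lep to 773 CPM for Car3, and no culture point exceeds the 5.90 CPM of Lpl in 2D co-culture.

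Levels were compared between genes per kilobase of the longest curated mRNA in the GENCODE M21 annotation of GRCm38. In the tumor library, Cfd came first with 748 CPM per kilobase, then Fabp4 with 641, Hp with 540 and Car3 with 460 CPM per kilobase. Adipoq followed with 90.2, Cidec with 39.7, Lpl with 30.2, Plin1 with 16.3, Plin4 with 11.6 and Lep with 1.80 CPM per kilobase. Without replicates, it cannot be said which neighbours in this order differ beyond the spread between samples.

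Between the cultures, few adipocyte genes passed 2-fold with 1 CPM added. Car3 and Lpl were higher in 2D co-culture than in 2D monoculture, 2 of the 10 genes, where 3.79% of all genes tested were higher, and none was lower, where 9.51% of genes were. Only Lpl was lower in spheroids than in 2D monoculture and than in 2D co-culture, 1 of 10 in each comparison, where 17.9% and 8.46% of genes were lower. No adipocyte gene was higher in spheroids in either comparison, where 11.2% and 9.54% of genes were higher. With 1 CPM added, a gene can pass 2-fold only if it exceeds 1 CPM in the higher library. In 2D monoculture only Lpl did, with 1.96 CPM, and in spheroids only Cfd, with 1.12 CPM. In 2D co-culture only Cfd, Hp, Car3 and Lpl did. For the other genes the level fixed the outcome, so nothing is read from these counts against the shares of all genes. The median log2 ratio of the 10 genes was 0.14 for spheroid to 2D monoculture and 0.28 for 2D co-culture to 2D monoculture, against 0.05 and 0.01 over all genes tested. With 0.1 CPM added in place of 1 CPM, Cfd, Car3 and Hp were higher in spheroids than in 2D monoculture, so that 4 genes were past 2-fold, and Cfd, Car3, Hp and Lpl were higher in 2D co-culture.

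Lpl lay on opposite sides of the 2D monoculture in the cultures with fibroblasts. Its log2 ratio to the 2D monoculture was 1.59 (interval 1.39 to 1.80) in 2D co-culture and -3.47 (interval -4.14 to -2.87) in spheroids, with nothing added. Car3, the other gene past 2-fold in 2D co-culture, had log2 ratios to the 2D monoculture of 4.75 (interval 3.67 to 6.09) in 2D co-culture and 4.04 (interval 2.95 to 5.39) in spheroids. For Hp these ratios were 4.92 and 4.79, and for Cfd 2.73 and 2.51, so both fibroblast cultures stood above the 2D monoculture by more than the counting error. Plin1 and Cidec had intervals that included 0 in both comparisons. Fabp4 had log2 ratios of 0.96 in 2D co-culture and 0.73 in spheroids, and Adipoq had 2.40 and 2.46 from 17 and 21 reads against 4. Plin4 also had ratios of opposite sign, 0.55 (interval 0.02 to 1.08) in 2D co-culture and -0.86 (interval -1.55 to -0.20) in spheroids. Genes of fibroblasts also differed between these libraries: Col1a2, a collagen chain, had 514 CPM in 2D co-culture, 4.05 CPM in spheroids and 2.97 CPM in 2D monoculture. The part of NIH/3T3 RNA in the Lpl level was not tested.

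The culture levels were next set against those of the tumor, gene by gene. The median level of the 10 genes was 0.136% of the tumor level in spheroids, 0.166% in 2D co-culture and 0.0399% in 2D monoculture. As a reference, 66 other genes outside the muscle lists with at least 5000 tumor reads and under 0.03% of the tumor level in 2D monoculture had a median of 0.122% in spheroids (quartiles 0.102% and 0.175%) and 0.189% in 2D co-culture (quartiles 0.150% and 0.295%). Single reference genes reached 0.461% in spheroids and 95.3% in 2D co-culture. The 12 skeletal muscle genes had medians of 0.135% and 0.196%. In the spheroid, the intervals of 6 adipocyte genes, Adipoq, Fabp4, Cidec, Car3, Hp and Lpl, included the reference median. In the 2D co-culture this held for 5 genes, Adipoq, Cfd, Fabp4, Cidec and Car3, while Hp at 0.147% lay just below. Cfd in spheroids, at 0.162% (interval 0.137% to 0.190%), lay above the reference median but within the quartiles.

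Lpl stood at 4.75% of its tumor level in 2D co-culture (interval 4.39% to 5.13%) and at 1.58% in 2D monoculture, but at 0.142% in spheroids. Plin4, with 0.879% in 2D co-culture, 0.601% in 2D monoculture and 0.331% in spheroids, lay above the reference in spheroids and 2D co-culture, and so did Plin1 with 0.364%, 0.428% and 0.706%. In 2D monoculture the choice of the reference genes itself set them under 0.03%, so nothing is read from that culture. Lpl, Plin4, Plin1, Fabp4 and Cidec stood above that limit in 2D monoculture, so the reference genes are not matched to them in the other cultures either. Leptin could not be placed, because the floor of 3 reads set for its count of 0 stood at 0.376% of its tumor level in spheroids. Car3 and Hp, the genes with most tumor reads of the 10, had 0.00636% and 0.00483% of the tumor level in 2D monoculture, against 0.105% and 0.133% in spheroids. The source of the reads of these genes in the spheroid and 2D co-culture libraries was not tested.

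**Figure D2:**
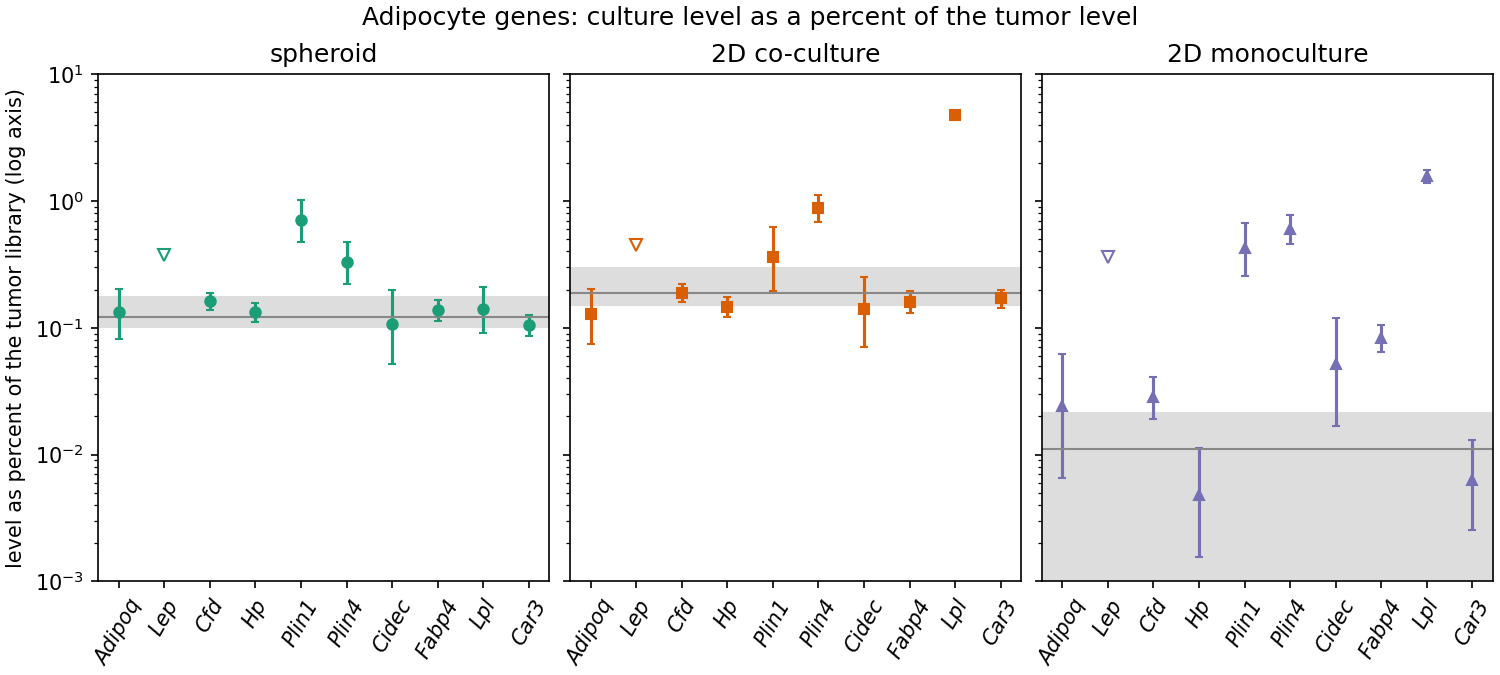
Level of each adipocyte gene in spheroids, 2D co-culture and 2D monoculture as a percent of its TMM-scaled level in the tumor library, on a log axis, with 95% counting intervals. Open triangles mark the floor of 3 reads where no read was counted. The grey line and band give the median and quartiles of the 66 reference genes (the band of the 2D monoculture reaches down to 0). Of the 9 genes with reads, 7 lie on the band in spheroids and 3 in 2D co-culture, where 3 lie below it and 3 above, with Lpl at 4.75%.

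Further genes of the adipocyte were read from 6 lists of 57 genes that hold none of the 10, and 50 of them averaged at least 1 CPM. Of the 57, 31 were more than 2-fold higher and 2 more than 2-fold lower in the tumor than in 2D monoculture, with a median log2 ratio of 1.18. Over all genes tested, 14.8% were higher and 18.2% lower, with a median of -0.14. In comparison with spheroids, 29 of the 57 were higher and 7 lower, where 27.6% and 26.8% of all genes were. The master regulators Cebpa and Pparg had 52.5 and 13.0 CPM in the tumor and at most 0.0786 and 0.0912 CPM in a culture. Of the 9 regulators, 4 were higher and 1 lower than in 2D monoculture, the lower one being Rxra, the nuclear receptor that pairs with PPARG, with 54.6 CPM in the tumor and 170 CPM in 2D monoculture. Srebf1, a regulator of lipid synthesis, had 67.6 CPM in the tumor and 121 CPM in 2D monoculture, within 2-fold. Against spheroids 3 regulators were higher and 3 lower, with a median log2 ratio of -0.17, where 27.6% and 26.8% of all genes were, and against 2D co-culture 3 were higher and 2 lower, with a median of -0.26, where 20.9% and 18.8% were. Cebpb, an early regulator of fat cell formation, had 25.8 CPM in the tumor and 92.5 CPM in spheroids.

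Lipolysis, the release of fatty acids from the droplet, had 6 of 8 genes higher in the tumor than in 2D monoculture and none lower. Of all genes tested, 14.8% were higher and 18.2% lower. Lipe, hormone-sensitive lipase, had 32.6 CPM in the tumor and 3.87 CPM in 2D monoculture, and Mgll, the lipase of the last step, had 84.4 and 10.9 CPM. Pnpla2, the lipase of the first step, and its activator Abhd5 were within 2-fold, with 63.6 and 51.0 CPM in the tumor against 85.7 and 68.8 CPM in 2D monoculture. Adrb3, the adrenergic receptor of fat, had 11.8 CPM in the tumor and at most 0.0175 CPM in a culture. In comparison with spheroids, 5 of the 8 genes were higher and 1 lower, where 27.6% and 26.8% of all genes were.

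Triglyceride synthesis was mixed, with 5 of 12 genes higher and 1 lower than in 2D monoculture, where 14.8% and 18.2% of all genes were. The lower gene was Fasn, fatty acid synthase, with 331 CPM in the tumor and 945 CPM in 2D monoculture. Scd1, the desaturase that makes oleate, had 578 CPM in the tumor and 134 CPM in 2D monoculture, and Pck1, which supplies the glycerol backbone in fat, had 56.9 CPM in the tumor and at most 0.131 CPM in a culture. Acly and Dgat1 were within 2-fold of the 2D monoculture. In comparison with spheroids, 6 of the 12 genes were higher and 1 lower, where 27.6% and 26.8% of all genes were. That lower gene was Dgat1, with 38.9 CPM in the tumor and 172 CPM in spheroids.

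Uptake and insulin response had 4 of 10 genes higher and none lower than in 2D monoculture, where 14.8% and 18.2% of all genes were. Cd36, the fatty acid transporter, had 193 CPM in the tumor and 0.969 CPM in 2D monoculture, and Cav1, the coat protein of caveolae, 218 and 9.15 CPM. The caveolar gene Ptrf, now called Cavin1, was within 2-fold. In comparison with spheroids, 3 of the 10 uptake and insulin response genes were higher and 2 lower, near the 27.6% and 26.8% of all genes. Among further adipokines, 7 of 10 genes were higher and none lower than in 2D monoculture, against 14.8% and 18.2% of all genes. Retn, the hormone resistin of mouse fat, had 34.8 CPM in the tumor and at most 0.0734 CPM in a culture, and Angptl4, an inhibitor of lipoprotein lipase, had 53.4 CPM against at most 1.01 CPM. Nampt, which many cells express, had 310 CPM in the tumor and 92.4 CPM in 2D monoculture.

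Brown fat genes had 5 of 8 higher and none lower than in 2D monoculture, at low levels, where 14.8% and 18.2% of all genes were. Ucp1, the uncoupling protein that defines brown fat, had 3.35 CPM in the tumor, Cidea had 4.26 CPM, Cox8b 15.7 CPM and Cox7a1 6.76 CPM. Ppargc1a and Prdm16 were within 2-fold, at 156 and 106 CPM in the tumor and 221 and 114 CPM in 2D monoculture.

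**Figure D3:**
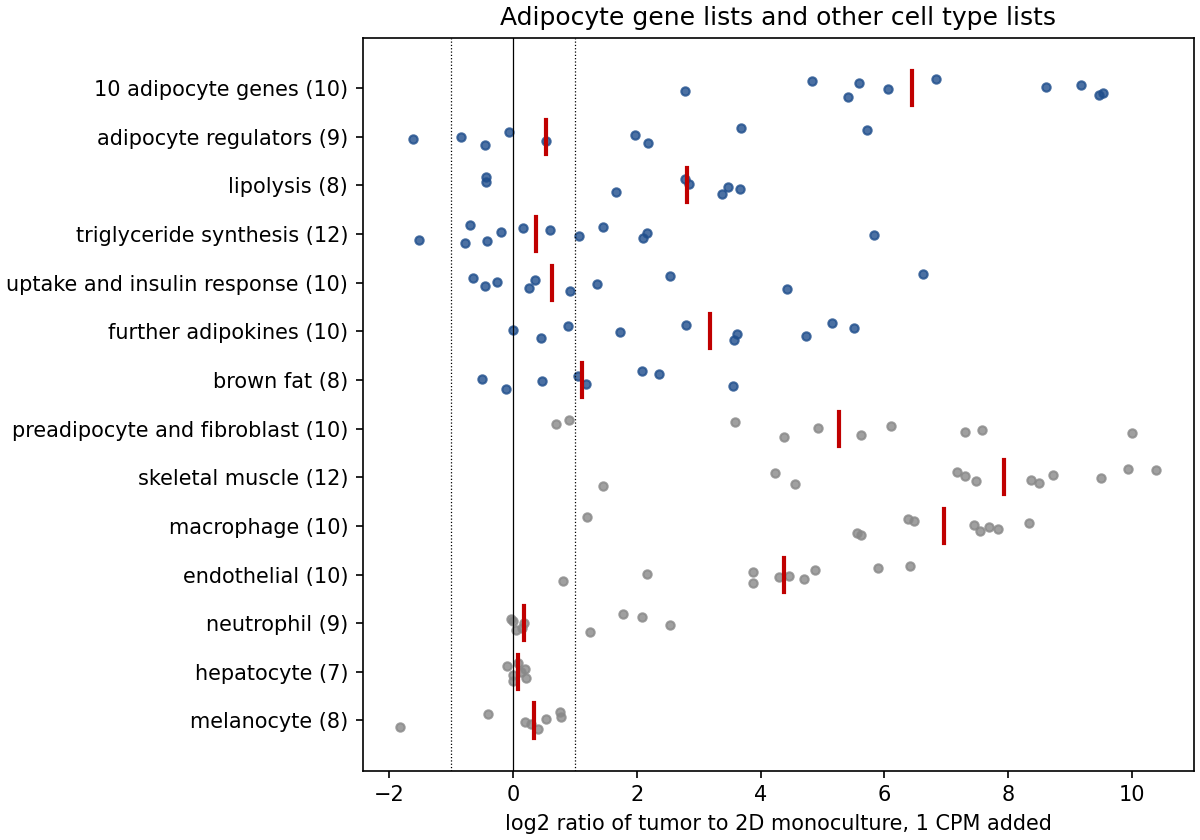
Log2 ratio of tumor to 2D monoculture with 1 CPM added, 1 point per gene, for the 10 adipocyte genes, the further adipocyte lists (blue) and lists of other cell types (grey), with the number of genes in brackets; red bars are medians and dotted lines mark 2-fold. The 10 adipocyte genes have a median of 6.45, skeletal muscle genes 7.92 and macrophage genes 6.96, whereas the medians of hepatocyte and neutrophil genes are 0.09 and 0.17.

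The families of 4 adipocyte genes showed how far the pattern was shared by their relatives. Among perilipins, Plin2, the coat protein of droplets in most cells, had 292 CPM in the tumor and 293 CPM in 2D monoculture, but 57.9 CPM in 2D co-culture and 40.4 CPM in spheroids. Plin3 had 141 CPM in the tumor and between 209 and 453 CPM in the cultures, more than 2-fold higher in spheroids than in 2D co-culture. Plin1 and Plin4 were the 2 of 5 perilipins past 2-fold above the 2D monoculture, where 14.8% of all genes were. Both are among the adipocyte genes picked by symbol. Above the spheroid and above the 2D co-culture, 4 of 5 were past 2-fold, where 27.6% and 20.9% of all genes were. Plin3 was more than 2-fold lower in the tumor than in 2D monoculture and in spheroids, where 18.2% and 26.8% of all genes were. Against 2D co-culture no perilipin was lower, where 18.8% of all genes were. Plin5, a perilipin of oxidative tissues, had 1.29 CPM in the tumor and 0.175 CPM in 2D monoculture, a log2 ratio of 2.88 (interval 2.27 to 3.54) that came to 0.96 with 1 CPM added. Fabp5, a relative of Fabp4 made by many cells, had 466 CPM in the tumor, 207 CPM in spheroids, 516 CPM in 2D co-culture and 177 CPM in 2D monoculture. Fabp7 and Fabp3 had 24.4 and 11.1 CPM in the tumor and between 3.49 and 15.0 CPM in the cultures. The other 2 CIDE genes were low, with Cidea at 4.26 CPM and Cideb at 0.0924 CPM in the tumor.

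Of 16 carbonic anhydrases, 6 were higher and 1 lower in the tumor than in 2D monoculture, where 14.8% and 18.2% of all genes were. The 6 include Car3 itself, which was picked for its difference from the tumor. Car9, the membrane enzyme that hypoxia induces, had 175 CPM in the tumor, 65.2 CPM in spheroids, 18.3 CPM in 2D co-culture and 10.1 CPM in 2D monoculture. Car6 and Car14 had 484 and 269 CPM in the tumor, 178 and 374 CPM in 2D co-culture and 85.3 and 150 CPM in 2D monoculture. Car11 was the lower gene, with 2.78 CPM in the tumor and 57.5 CPM in spheroids. Car4, Car8 and Car12 differed more than 2-fold between some cultures at levels of at most 3.38 CPM. Car3, in contrast, had at most 1.32 CPM in a culture and 773 CPM in the tumor.

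**Figure D4:**
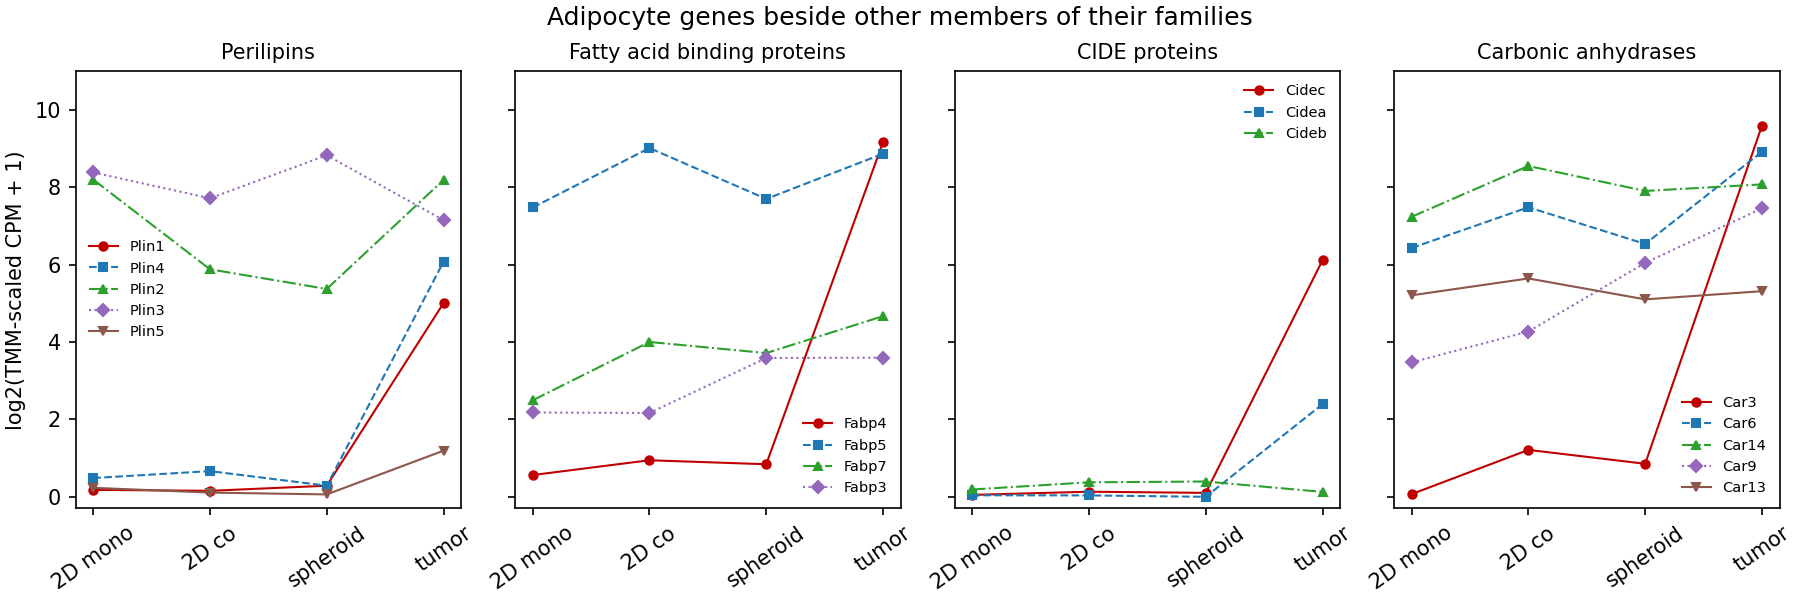
Log2 of TMM-scaled CPM plus 1 in the 4 libraries for perilipins, fatty acid binding proteins, CIDE proteins and carbonic anhydrases, with adipocyte genes first in each legend; the lines only guide the eye between libraries. Plin1, Plin4, Fabp4, Cidec and Car3 are near the bottom in all cultures and high in the tumor, while Plin2, Plin3, Fabp5, Car6 and Car14 are expressed in every culture.

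The partners of the secreted genes were read in the same way. Gpihbp1, which holds lipoprotein lipase on the capillary wall, had 34.6 CPM in the tumor and at most 0.0786 CPM in a culture, while Lmf1 and Sel1l, which mature the enzyme in the endoplasmic reticulum, were lower in the tumor than in 2D monoculture. In all, 3 of 11 partners of the enzyme were higher and 2 lower, where 14.8% and 18.2% of all genes were. The adiponectin receptors Adipor1 and Adipor2 were expressed in all libraries, with 154 and 131 CPM in the tumor and between 135 and 442 CPM in the cultures. The leptin receptor Lepr had 1.58 CPM in the tumor and at most 0.0281 CPM in a culture. Cdh13, which binds adiponectin, had 16.9 CPM in the tumor and 4.30, 1.23 and 1.86 CPM in spheroids, 2D co-culture and 2D monoculture, and Cd163, the haptoglobin receptor of macrophages, had 53.2 CPM in the tumor. Of 10 alternative complement pathway genes beside adipsin, 7 were higher than in 2D monoculture and none lower, against the same shares of all genes. They were led by C3, the central component of the pathway, with 210 CPM in the tumor and at most 1.14 CPM in a culture. Cfp, Cfb and C3ar1 had 82.3, 81.1 and 66.9 CPM in the tumor.

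Several of the 10 genes are also made by other cells, whose markers moved with the same library. All 12 skeletal muscle genes were higher in the tumor than in 2D monoculture, where 14.8% of all genes were. The same share applies to the lists that follow. The muscle genes summed to 6210 CPM in the tumor, 97.4 CPM in spheroids, 19.2 CPM in 2D co-culture and 16.3 CPM in 2D monoculture. The 6 slow muscle genes summed to 6.12 CPM in the tumor and 10.1 CPM in 2D monoculture. All 10 macrophage genes were higher, with sums of 2191 CPM in the tumor, 27.1 CPM in spheroids, 10.7 CPM in 2D co-culture and 30.0 CPM in 2D monoculture, as were 9 of 10 endothelial genes, with 350 CPM and 27.8 to 78.7 CPM. Single genes made up most of some culture sums, with Pygm, the muscle glycogen phosphorylase, at 80.8 CPM in spheroids, Egfl7 of the endothelial list at 74.0 CPM there, and Cd68 of the macrophage list at 22.5 CPM in spheroids and 27.5 CPM in 2D monoculture. Of the 10 preadipocyte and fibroblast genes, 8 were higher, with 2739 CPM in the tumor, 735 CPM in 2D co-culture, 37.9 CPM in spheroids and 17.6 CPM in 2D monoculture. Their part in the tumor levels of Fabp4, Lpl, Car3 and Hp was not tested.

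Markers of further sources had summed levels of 2.21 to 12.6 CPM in the tumor. The 7 hepatocyte genes, relevant to haptoglobin, summed to 2.21 CPM in the tumor, with albumin at 0.111 CPM, and none passed 2-fold. The 9 neutrophil genes summed to 12.6 CPM in the tumor, and 4 of them, Retnlg, S100a9, S100a8 and Cxcr2, were higher than in 2D monoculture, where 14.8% of all genes were. These 4 genes had 4.78, 3.24, 2.85 and 1.37 CPM in the tumor and at most 0.119 CPM in a culture, whereas the granule genes Mpo and Ngp had 0.111 and 0.00616 CPM in the tumor. The keratinocyte and sebaceous gland genes summed to 4.95 CPM and the mammary epithelium genes to 4.03 CPM in the tumor. The mammary epithelium genes summed to more, 7.33 CPM, in 2D monoculture. Of these 7 genes, 1 was higher and 1 lower in the tumor than in 2D monoculture, where 14.8% and 18.2% of all genes were. Krt18, an epithelial keratin, had 168 reads in the tumor and at most 1 in a culture, Krt8 had 154 and at most 4, and Epcam 49 and none, while Krt1 and Csn2 had no read in the tumor. The part of these cells in the tumor levels was not tested.

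The genes whose pattern over the 4 libraries lay closest to the median of the 10 were sought among 9642 other genes with at least 10 CPM in the tumor, by the Euclidean distance of the log2 ratios of the 3 cultures to the tumor with 1 CPM added. The closest were Csf1r, Pecam1, Adgre1, H2-Ab1, Pf4, Fcgr2b, Rgs5, H2-Eb1, Klhl41 and Gas6, at distances of 0.237 to 0.433. They had 87.4 to 111 CPM in the tumor and at most 0.309 CPM in a culture. With 1 CPM added, such low culture levels hardly change the ratios, so the ranking mostly reflects the tumor level. Csf1r and Adgre1 are macrophage markers and Pecam1 marks endothelium. Of the 10 adipocyte genes, Adipoq and Cidec lay nearest to their median, at 0.521 and 0.865, and Lep farthest at 6.45. This ranking is a description over 4 libraries.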

How the data were processed

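RNA from 4 sources was sequenced as 1 library each, with paired 150-base reads of poly(A)-selected RNA. The authors deposited read counts per refGene symbol, whole numbers without normalization. The submitters' processing notes name Trimmomatic, STAR, featureCounts and the build mm10, and for their versions and the strand setting the sources used here give nothing. Each column was matched to its sample by the library name. TMM factors were computed with edgeR 4.0.16 in R 4.3.3, on all 24527 genes, and were 0.908 (spheroid), 0.963 (2D co-culture), 0.984 (2D monoculture) and 1.16 (tumor). Intervals of levels are exact Clopper-Pearson intervals, and ratios take theirs from the binomial share of the reads of both libraries, also exact (scipy 1.17.1, Python 3.11.15). A gene was called past the fold when log2 of CPM plus 1 differed by more than 1. NOISeq and GFOLD, named in the methods of the study, were not run, and no test was possible.

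The 10 genes and all lists were chosen with earlier results of these data known. No filter was set on the 10 genes, all of which average at least 1 CPM, and 9 of them, all but Lpl, reach that through the tumor library alone. Named are the 10 genes, the 4 genes of highest CPM of each list described gene by gene, family and partner genes past 2-fold between cultures and the 10 most alike genes. Pparg, Adrb3, Pck1, Ucp1, Lepr, Plin5, Pygm, Egfl7, Cd68 and the markers Mpo, Ngp, Krt1 and Csn2 were added after their values were seen, and 2 genes that the rule names are not reported here. The interval and fold rules were tested on simulated data. As alternatives, libraries were scaled by total counts, by upper quartiles or by DESeq2 1.42.0, or 0.1 CPM was added, a filter was set or the fold was 4.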

Additional observations from a re-analysis of the deposited data

Results flagged for a closer look

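Lpl lay past 2-fold on opposite sides of the 2D monoculture in the cultures with fibroblasts, which drew attention to it. Its log2 ratio to the 2D monoculture was -3.47 in spheroids and 1.59 in 2D co-culture, from 24, 676 and 279 reads in spheroids, 2D co-culture and 2D monoculture. Each culture is 1 library, so the difference was not tested.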

How the results depend on the processing

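No paired analysis was possible because each source has 1 library. The count of 10 adipocyte genes higher in the tumor than in each culture was the same in all 6 alternatives run. Of these, the filter on a mean of 1 CPM removed none of the 10 genes, so it could not change the count. Adding 0.1 CPM in place of 1 CPM can only raise these ratios, so it could not lower the count. Counts within 1.5 times and median percents within 1.5 times were taken as the same, which held for every median percent of the tumor level and for the count of other adipocyte genes. Between cultures, counts depended on the added CPM and, in 2 of 3 comparisons, on the fold. With 0.1 CPM added, the genes past 2-fold numbered 4 for spheroid against 2D monoculture, 4 for 2D co-culture against 2D monoculture and 2, Lpl and Plin4, for spheroid against 2D co-culture. With the 4-fold rule, they numbered 0 for spheroid against 2D monoculture and 0 for 2D co-culture against 2D monoculture, and stayed at 1, Lpl, for spheroid against 2D co-culture. TMM factors of the 3 cultures alone, chosen after seeing the data, gave the same counts as the factors of all 4 libraries. Of 162 log2 ratios of single genes under another scaling, 151 stayed within their counting interval and none reversed, and the largest shift was 0.358, for tumor to spheroid with total counts. With 0.1 CPM added, 19 of 27 list medians of tumor to 2D monoculture moved by more than 1.5-fold. Depth limits Lep, Cidec and Adipoq in the cultures, where at most 21 reads were counted. It also limits Hp and Car3 in 2D monoculture, with 5 and 7 reads, and Plin1, with 13 to 30 reads in the cultures.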

Other observations

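Some genes of the fat cell lineage had unlike levels between the cultures, which the text has not yet described. Dlk1, which marks preadipocytes, had 55.7 CPM in 2D co-culture, 1.37 CPM in spheroids, 0.87 CPM in the tumor and no read in 2D monoculture. Slc2a4, the glucose transporter that insulin moves to the surface of fat and muscle cells, had 15.7 CPM in spheroids, 11.8 CPM in 2D co-culture, 14.4 CPM in the tumor and 1.65 CPM in 2D monoculture. G0s2, an inhibitor of the lipase Pnpla2, had 19.1 CPM in spheroids, 22.5 CPM in the tumor, 3.55 CPM in 2D co-culture and 1.12 CPM in 2D monoculture. These 3 genes were chosen after their values were seen.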
